A study of Mus musculus with 24 samples.

Results

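Expression of 10 genes of the hypoxia response was examined in engineered skeletal muscle that was exercised with light. The genes were chosen by name, with earlier results of these data known. All 10 were found among the 56941 genes of the deposited tables. They were Hif1a and Epas1 (hypoxia-inducible factor subunits), Egln1 and Egln3 (prolyl hydroxylases), and Vegfa, Bnip3, Ndrg1, Adm, Ankrd37, and Kdm3a (target genes). The tissues were sheets of C2C12 muscle, an established mouse myoblast line that fuses into contractile fibers, grown on grooved fibrin hydrogels. All cells, controls included, had the genotype ChR2::tdTomato, a blue light-gated channel joined to a red fluorescent reporter, and all were differentiated in medium with horse serum and IGF-1. Tissues received light pulses at 1, 4, or 10 Hz for 30 min each day, or no stimulation (control), and RNA was taken on day 14 of differentiation. Each group held 6 libraries, 24 in all. The authors described spontaneous twitching in every group, tissues without light included.

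Cells sense oxygen through the stability of the HIF alpha subunits. With oxygen present, prolyl hydroxylases mark HIF1A (encoded by Hif1a) and EPAS1 for binding by VHL and destruction. When oxygen runs short, the alpha subunit persists, joins ARNT, and binds DNA at hypoxia response elements, whose core is ACGTG or GCGTG. Because this control acts on the protein, the mRNA of an alpha subunit does not report its activity. In skeletal muscle the pathway is known for induction of capillary growth factors, glycolysis, and removal of mitochondria.

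Short sequences around matches to the response element core are shown here because a HIF dimer binds DNA at such a core. Whether it binds any of these stretches was not tested. Promoter windows (250 bases before and 50 bases from a transcription start, from RefSeq) matched 8 of the 10 genes by symbol in 11 windows. Epas1 and Ndrg1 were not matched. Both strands were searched for ACGTG and GCGTG, which on the other strand read CACGT and CACGC, and CACGTG counts in both directions. At least 1 core was found in 8 of the 11 windows, against 43.8% of all 32851 windows in the table, and ACGTG was found in 6 of the 11, against 19.6% of all windows. A match describes letters only, and the genes were picked as known targets. Each stretch below is written 5′ to 3′ on the strand of the gene, with 1 core in capitals. Any further core within a stretch is left in lower case, as in Bnip3 and in Vegfa (CACGT). Adm and Kdm3a also had cores, which are not shown. Positions are from an exact match in GRCm39.
Hif1a: cacacagacaagCACGTgagcggggcagc
Egln1: gggccgtggtgtACGTGcagcgcgcgcgg
Egln3: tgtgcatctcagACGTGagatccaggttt
Bnip3: gcgcacgcgccgCACGTgccacacgctcc
Ankrd37: cccagcagtACGTGcctagctcggct
Vegfa: aagccctggagtGCGTGcccacgtcagag
The Hif1a stretch (chr12:73954494-73954522, plus strand), the Egln3 stretch (chr12:54250873-54250901, minus strand), the Bnip3 stretch (chr7:138511327-138511355, minus strand), and the Ankrd37 stretch (chr8:46453112-46453137, minus strand) lay upstream of the canonical transcript of each gene. The Egln1 stretch (chr8:125676045-125676073, minus strand) lay in untranslated sequence of exon 1. The Vegfa stretch (chr17:46336291-46336319, minus strand) belonged to an inner start site and lay in coding sequence of exon 3, whereas the window at the outer Vegfa start held no core. The Bnip3 window was the richest of the 11, with 5 cores on both strands.

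The libraries held 4.09 to 15.2 M estimated counts (median 7.48 M), and the lowest of the 9 genes tested, Adm, had 38 to 354 counts per library. Counts per M of scaled library (CPM) below use library sizes scaled by the trimmed mean of M values (TMM). All 10 listed muscle fiber genes were present in every library, with a mean of 2889 CPM for Acta1 in control. Their summed level was 8442 to 10337 CPM in control, 12684 to 16580 CPM at 1 Hz, 13185 to 19171 CPM at 4 Hz, and 9116 to 13695 CPM at 10 Hz. Of these 10 genes, 8 rose at 1 Hz, 8 at 4 Hz, and 3 at 10 Hz in edgeR, against 18.1%, 19.2%, and 2.67% of all genes tested. With the small RNA share described below as a covariate, 0 passed at 1 Hz, 3 at 4 Hz, and 3 at 10 Hz. Over all genes, 1 passed at 1 Hz (1421 had an unadjusted p below 0.05), 308 at 4 Hz, and 614 at 10 Hz in that fit. Bulk RNA cannot tell apart fewer cells of a type and less RNA per cell. The 6 endothelial markers summed to 0.581 to 1.75 CPM in control, 0.493 to 1.35 CPM at 1 Hz, 0.524 to 2.12 CPM at 4 Hz, and 0.819 to 2.03 CPM at 10 Hz, with Tie1 and Emcn at 0 in all 24 libraries. Of 6 macrophage markers, Ptprc and Tyrobp were at 0 in 23 of 24 libraries each and Adgre1 in 22, whereas Cd68, Csf1r, and Itgam were found in every library. Their sum was 76.2 to 116 CPM in control, 86.8 to 113 CPM at 1 Hz, 69.04 to 105 CPM at 4 Hz, and 73.3 to 98.97 CPM at 10 Hz, nearly all of it Cd68 (mean 88.9 CPM), a lysosomal protein gene that other cells also use. A further property moved with the groups. Small RNAs without a poly(A) tail took 98.4 to 169 counts per M of the library in control, 15.03 to 70.8 at 1 Hz, 18.2 to 51.1 at 4 Hz, and 38.4 to 272 at 10 Hz. This share did not overlap between control and either 1 or 4 Hz, so in those comparisons stimulation and library composition cannot be told apart.

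Compared with control, 2 of the 10 genes rose and 2 fell at 1 Hz, 2 rose and 2 fell at 4 Hz, and 1 fell at 10 Hz. A gene was called at a Benjamini-Hochberg adjusted p below 0.05 over 13318 genes (quasi-likelihood test of edgeR), and 9 of the 10 genes passed the filter on low counts (Epas1 did not). The count at 1 Hz, 4 of 9 genes tested, stood against 35.4% of all genes (18.1% higher and 17.3% lower). The count at 4 Hz, also 4, stood against 39.4% (19.2% higher and 20.2% lower), and the single gene at 10 Hz against 4.89% (2.67% higher and 2.22% lower). Between frequencies, 1 gene was higher and 2 were lower at 4 Hz than at 1 Hz, against a background of 12.3% (5.71% higher and 6.56% lower). At 10 Hz, 3 genes were lower than at 1 Hz, against 36.3% (17.7% higher and 18.5% lower), and 2 were lower than at 4 Hz, against 22.8% (10.9% higher and 11.9% lower). Over both directions together, each count apart from 4 Hz against 1 Hz lay within 1 gene of the background share and is no result about the group. With the additional limit of an absolute log2 fold change above 0.5, which the study used, the counts in the same order were 3, 1, 0, 0, 2, and 1, against backgrounds of 18.3%, 20.1%, 1.86%, 3%, 17.9%, and 11%. The 3 comparisons with control share the same 6 control libraries.

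**Figure D1:**
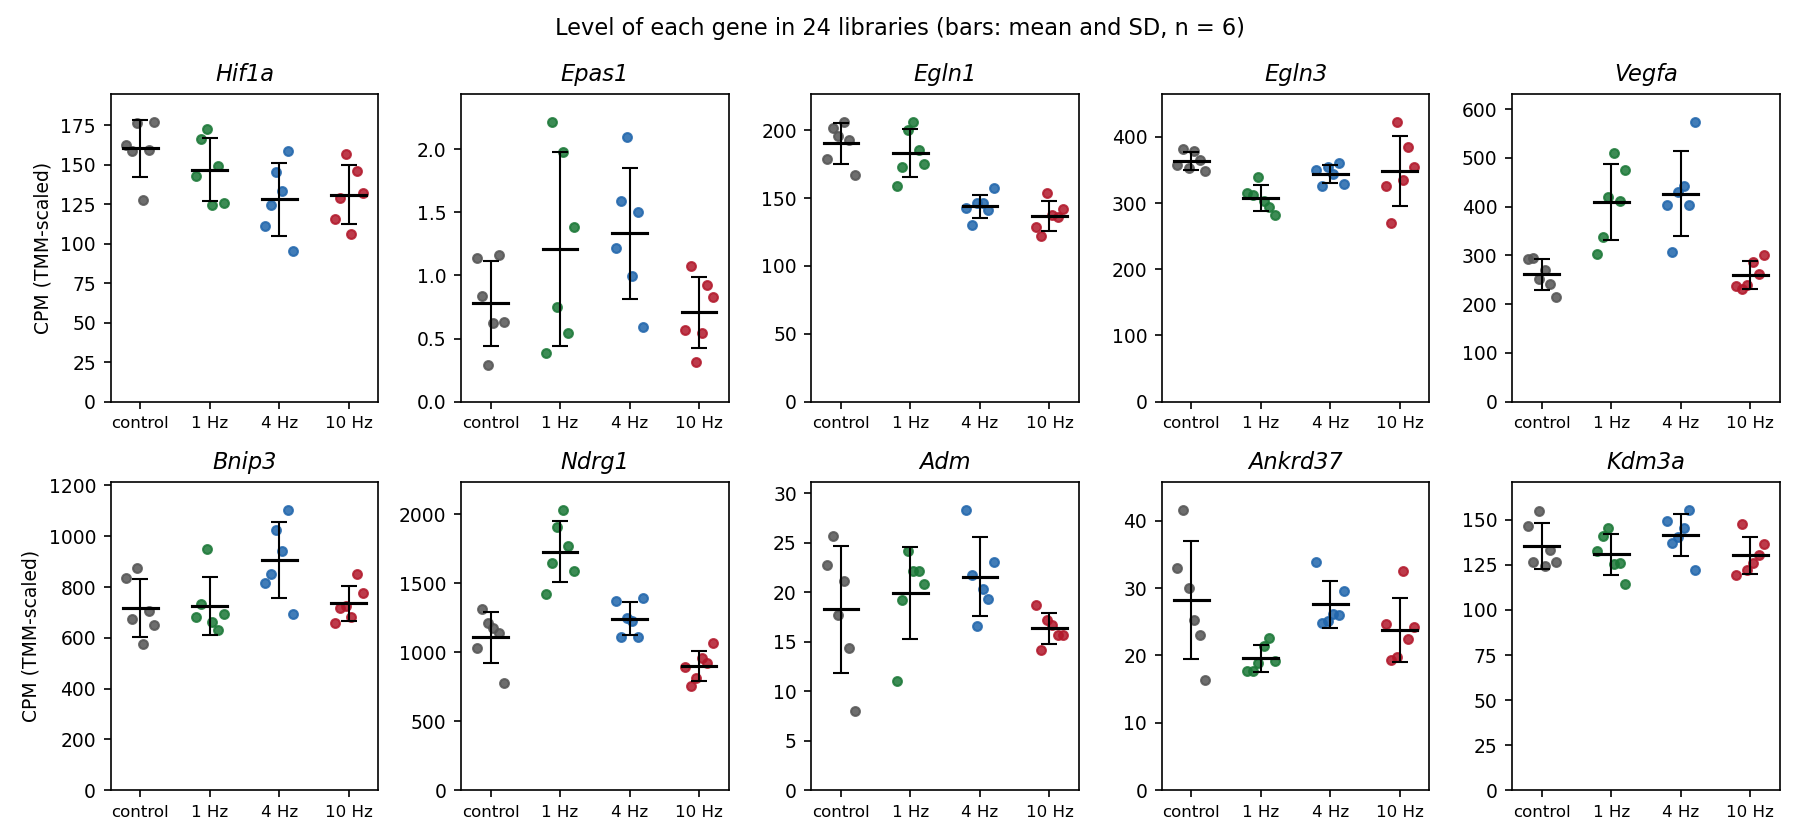
Level of each of the 10 genes (y axis, CPM, starting at 0) in each of the 24 libraries by group (x axis), with bars for the mean and SD of 6 libraries. Vegfa at 1 and 4 Hz and Ndrg1 at 1 Hz sit above every control library, whereas Egln1 at 4 and 10 Hz sits below every control library.

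Per unit length, the genes spanned from nearly silent to among the most abundant of the tissue. Mean transcripts per M (TPM) over all libraries were 716 ± 103 for Bnip3 (SD, n = 24) and 640.03 ± 191 for Ndrg1 (SD, n = 24), which both lay above 98% of the tested genes (percentiles 98.4 and 98.2). Vegfa (219 ± 70.8 TPM, SD, n = 24) and Egln3 (186 ± 24.1 TPM, SD, n = 24) followed, and Egln3 was 2.85 times as abundant as Egln1 (65.3 ± 13.5 TPM, SD, n = 24). Ankrd37 (50.3 ± 13.7 TPM), Kdm3a (49.04 ± 5.47 TPM), and Hif1a (44.6 ± 8.81 TPM) were neighbors whose spreads overlapped (SD, n = 24 each), ahead of Adm (21.1 ± 5.08 TPM, SD, n = 24). Epas1 was last, with 0.372 ± 0.309 TPM (SD, n = 24). The order was not the same in every group. Egln3 stood above Vegfa in control (211 ± 15.6 against 171 ± 32.8 TPM) and at 10 Hz (188 ± 31.6 against 158 ± 25.1 TPM), and below it at 1 Hz (171 ± 13.3 against 278 ± 56.9 TPM) and 4 Hz (175 ± 8.68 against 268 ± 61.4 TPM; SD, n = 6 each). At 1 Hz Ndrg1 stood at 913 ± 118 TPM (SD, n = 6) and Bnip3 at 703 ± 94.4 TPM (SD, n = 6), and at 10 Hz Ndrg1 stood at 453 ± 60.05 TPM (SD, n = 6) and Bnip3 at 663 ± 55.0 TPM (SD, n = 6).

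Of the alpha subunits, Hif1a was the one present in this muscle. Hif1a (ENSMUSG00000021109, chr12:73948149-73996321) encodes the broadly expressed oxygen-regulated subunit. Its level ran from 128 to 177 CPM in control (median 161), from 124 to 173 CPM at 1 Hz (median 146), from 95.2 to 158 CPM at 4 Hz (median 129), and from 106 to 157 CPM at 10 Hz (median 131). Groups overlapped throughout, with 3 of 6 libraries at 4 Hz below the lowest control. Hif1a fell by 0.32 on the log2 scale at 4 Hz (SE 0.12, edgeR adjusted p = 0.0272). At 10 Hz the difference was of like size, -0.29 (SE 0.12), and did not pass (edgeR adjusted p = 0.141), and at 1 Hz it was -0.13 (edgeR adjusted p = 0.413). The call at 4 Hz was lost when 4 single libraries were left out in turn, namely control 3 (edgeR adjusted p = 0.0615), control 6 (0.0588), 4 Hz 1 (0.0768), and 4 Hz 6 (0.0932). It was also lost without the filter on low counts (edgeR adjusted p = 0.0585) and with the small RNA share as a covariate (0.357).

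Epas1 (ENSMUSG00000024140, chr17:87061087-87140838), which encodes the subunit HIF-2 alpha that is prominent in endothelium, was close to the limit of counting. It had 2 to 6 counts per library in control, 2 to 14 at 1 Hz, 6 to 16 at 4 Hz, and 3 to 7 at 10 Hz. In CPM its mean was 0.780 ± 0.335 in control, 1.21 ± 0.771 at 1 Hz, 1.33 ± 0.520 at 4 Hz, and 0.708 ± 0.282 at 10 Hz (SD, n = 6 each). The ranges of all groups overlapped, and Epas1 was not tested in the full fit because it did not pass the filter on low counts. Its values in the fits without a filter are not reported here.

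Of the prolyl hydroxylases, Egln1 was lower at 4 and 10 Hz and Egln3 was lower at 1 Hz. Egln1 (ENSMUSG00000031987, chr8:125635308-125676865) encodes PHD2, the main hydroxylase of HIF1A under normal oxygen, and is itself a target of the pathway. Its level ran from 167 to 206 CPM in control (median 194), from 159 to 206 CPM at 1 Hz (median 180.3), from 130.4 to 157 CPM at 4 Hz (median 144), and from 122 to 154 CPM at 10 Hz (median 137). Every library of the 4 and 10 Hz groups had less Egln1 than the lowest control. Non-overlapping libraries on the low side were found for 7.93% of all genes tested at 4 Hz and for 1.3% at 10 Hz. Egln1 fell by 0.40 on the log2 scale at 4 Hz (SE 0.07, 95% interval -0.56 to -0.25, edgeR adjusted p = 0.000135) and by 0.48 at 10 Hz (SE 0.07, 95% interval -0.63 to -0.33, edgeR adjusted p = 0.000603). At 1 Hz the difference was -0.06 (95% interval -0.21 to 0.10, edgeR adjusted p = 0.584). The frequencies differed among themselves. Relative to 1 Hz, the Egln1 log2 fold change was -0.35 at 4 Hz (SE 0.07, edgeR adjusted p = 0.00301) and -0.42 at 10 Hz (SE 0.07, edgeR adjusted p = 9.76e-05), each with 6 of 6 libraries below. Such separation on the low side was found for 3.33% of all genes tested at 4 Hz against 1 Hz and for 7.49% at 10 Hz against 1 Hz. Between 10 and 4 Hz the log2 fold change was -0.08 (95% interval -0.23 to 0.08).

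Egln3 (ENSMUSG00000035105, chr12:54225767-54250673) encodes PHD3, a hydroxylase that HIF induces strongly in many cells. Its level ran from 348 to 382 CPM in control (median 361), from 282 to 339 CPM at 1 Hz (median 307), from 326 to 360.1 CPM at 4 Hz (median 347), and from 269 to 423 CPM at 10 Hz (median 345). The 1 Hz libraries were without exception under the lowest control (as for 5.86% of all genes tested), and the spread at 10 Hz was the widest of the 4 groups, with a coefficient of variation of 15.1% against 3.75% in control. Egln3 fell by 0.24 on the log2 scale at 1 Hz (SE 0.08, edgeR adjusted p = 0.0163). This call was lost without the filter on low counts (edgeR adjusted p = 0.121) and with the small RNA share as a covariate (0.204). The differences were -0.08 at 4 Hz and -0.06 at 10 Hz (edgeR adjusted p = 0.418 and 0.709). At 4 Hz the size depended on the scale, since limma on log2(TPM + 1) gave -0.27 and a call (adjusted p = 0.0180, and 0.0178 on log2(TPM + 0.1)). At 10 Hz Egln3 was 0.18 above 1 Hz on the log2 scale, which did not pass in edgeR (adjusted p = 0.0660) and passed in DESeq2 (adjusted p = 0.0479).

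Vegfa was higher at both 1 and 4 Hz. Vegfa (ENSMUSG00000023951, chr17:46327919-46343309) encodes the growth factor with which muscle recruits capillaries. Its level ran from 214 to 295 CPM in control (median 261), from 302 to 509 CPM at 1 Hz (median 415), from 307 to 574 CPM at 4 Hz (median 417), and from 231 to 301 CPM at 10 Hz (median 251). Every library at 1 and 4 Hz lay above every control library and above every 10 Hz library, and control and 10 Hz overlapped. Non-overlapping libraries on the high side of control were found for 7.22% of all genes tested at 1 Hz and for 8.68% at 4 Hz. The 10 Hz libraries lay below all those at 1 Hz for 7.49% of genes and below all those at 4 Hz for 3.54%. The fold over control was 1.57 at 1 Hz (log2 fold change 0.65, SE 0.13, edgeR adjusted p = 0.000337) and 1.63 at 4 Hz (log2 fold change 0.71, SE 0.13, edgeR adjusted p = 0.000101). At 10 Hz the log2 fold change was -0.01, with a 95% interval of -0.27 to 0.25. Vegfa was lower at 10 Hz than at 1 Hz and at 4 Hz, with log2 values of -0.66 (SE 0.13, edgeR adjusted p = 0.000254) and -0.72 (SE 0.13, edgeR adjusted p = 0.00038). The 4 and 1 Hz tissues differed by 0.06 (95% interval -0.20 to 0.32, edgeR adjusted p = 0.808).

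Adm, which encodes the vasodilator peptide adrenomedullin (ENSMUSG00000030790, chr7:110226858-110229027), was the lowest of the tested genes. It ran from 7.95 to 25.7 CPM in control (median 19.4), from 10.98 to 24.1 CPM at 1 Hz (median 21.5), from 16.6 to 28.3 CPM at 4 Hz (median 21.04), and from 14.1 to 18.7 CPM at 10 Hz (median 16.2). All groups overlapped, and Adm passed in none of the 6 comparisons by edgeR or DESeq2 (1 had an unadjusted p below 0.05). The difference nearest to a call was 10 Hz against 4 Hz, at -0.39 on the log2 scale (SE 0.18, adjusted p = 0.125 in edgeR), and it passed when only those 12 libraries were fitted (adjusted p = 0.0342 in edgeR). Intervals were wide, as at 1 Hz against control (0.13, 95% interval -0.26 to 0.51).

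Ndrg1 was higher at 1 Hz than in each of the other groups. Ndrg1 (ENSMUSG00000005125, chr15:66801166-66841835) encodes a stress-responsive cytoplasmic protein that is widely used as a marker of hypoxia. Its level ran from 780.5 to 1312 CPM in control (median 1158), from 1422 to 2032 CPM at 1 Hz (median 1712), from 1113 to 1392 CPM at 4 Hz (median 1237), and from 756 to 1068 CPM at 10 Hz (median 907). All 6 libraries at 1 Hz lay above every other library. Such separation was found for 7.22% of all genes tested against control, 3.33% against 4 Hz, and 7.49% against 10 Hz. The 10 Hz libraries were all under the lowest 4 Hz library, as for 3.54% of all genes tested. The fold over control was 1.56 at 1 Hz (log2 fold change 0.64, SE 0.11, edgeR adjusted p = 8.21e-05). At 4 Hz the difference was 0.17 (95% interval -0.05 to 0.39, edgeR adjusted p = 0.225), and at 10 Hz it was -0.30 (95% interval -0.52 to -0.08, edgeR adjusted p = 0.101). Ndrg1 was lower at 4 Hz than at 1 Hz (-0.47, SE 0.11, edgeR adjusted p = 0.00491) and lower at 10 Hz than at 4 Hz (-0.46, SE 0.11, edgeR adjusted p = 0.00324). From 1 to 10 Hz the level dropped by 47.8% (log2 fold change -0.94, SE 0.11, edgeR adjusted p = 8.44e-07). Without control 6, which had the lowest Ndrg1 of the controls, the 10 Hz difference passed (-0.38, edgeR adjusted p = 0.0205). The 10 Hz difference also passed with the small RNA share as a covariate (-0.36, edgeR adjusted p = 0.0288) and in limma on log2(TPM + 1) (-0.39, adjusted p = 0.0410).

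Bnip3 was higher at 4 Hz, in part of the libraries. Bnip3 (ENSMUSG00000078566, chr7:138490690-138511253) encodes a mitochondrial outer membrane receptor that draws mitochondria into autophagy. Its level ran from 574 to 874 CPM in control (median 689.8), from 629.6 to 948 CPM at 1 Hz (median 687), from 694 to 1103 CPM at 4 Hz (median 897), and from 659 to 852 CPM at 10 Hz (median 722). Groups overlapped, with 3 of 6 libraries at 4 Hz above the highest control. Those were 4 Hz 3, 4, and 5 (1026, 941, and 1103 CPM), and they held 3.47%, 3.90%, and 4.71% of counts on mitochondrial genes, against 1.94%, 2.01%, and 1.80% in 4 Hz 1, 2, and 6 (816, 853, and 694 CPM). The mitochondrial share ran from 2.01% to 3.18% in control and from 2.28% to 4.79% at 10 Hz, and its part in the difference was not tested. At 4 Hz Bnip3 rose, with a log2 value of 0.33 over control (SE 0.11, edgeR adjusted p = 0.0215), while the values at 1 and 10 Hz were 0.01 and 0.03. Against 1 Hz and against 10 Hz the 4 Hz level was higher by 0.32 and by 0.30, and neither passed in edgeR (adjusted p = 0.0621 and 0.0561), whereas both passed in DESeq2 (adjusted p = 0.0356 and 0.0392). The call against control was lost when control 4, 4 Hz 3, or 4 Hz 5 was left out (edgeR adjusted p = 0.0581, 0.0503, and 0.0574). It was lost as well with total count scaling (0.24, edgeR adjusted p = 0.0800) and in limma on unfiltered log2(TPM + 1) (adjusted p = 0.0588). With the small RNA share as a covariate it was also lost (0.20, edgeR adjusted p = 0.615).

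Ankrd37, a small ankyrin repeat protein gene that HIF is known to induce (ENSMUSG00000050914, chr8:46449939-46458744), was lower at 1 Hz. It ran from 16.3 to 41.6 CPM in control (median 27.7), from 17.7 to 22.7 CPM at 1 Hz (median 19.02), from 24.8 to 33.9 CPM at 4 Hz (median 26.1), and from 19.4 to 32.5 CPM at 10 Hz (median 23.3). Control spanned the whole range of 1 Hz, and the 6 libraries at 4 Hz lay above all 6 at 1 Hz (2.37% of all genes tested). Against control, Ankrd37 fell by 0.53 on the log2 scale at 1 Hz (SE 0.16, edgeR adjusted p = 0.0105). This call was lost with the small RNA share as a covariate (-0.88, edgeR adjusted p = 0.180). Ankrd37 passed at 1 Hz in all but 1 of the 12 fits without a single library (without control 2, -0.37, edgeR adjusted p = 0.0553). It was higher at 4 Hz than at 1 Hz by 0.49 (SE 0.15, edgeR adjusted p = 0.0380), a call that held in 5 of 12 such fits (edgeR adjusted p from 0.0434 to 0.0894). The call was lost without 1 Hz 1, 2, 3, 4, or 6 and without 4 Hz 1 or 4, and also with total count scaling (edgeR adjusted p = 0.0504) and in limma on log2(TPM + 1), log2(TPM + 0.1), and unfiltered log2(TPM + 1) (adjusted p = 0.0522, 0.0517, and 0.127). Ankrd37 overlaps Ufsp2 on the opposite strand, which had a mean of 31.1 CPM. The library kit was a directional one, which keeps strand, but the sources used here do not say whether counting made use of it, so the level of Ankrd37 is uncertain. For the other 9 genes, the overlapping genes that were in the table had at most 1.41 CPM. The estimated counts of Bnip3 held a fraction in every library (4405.69 in control 1). Whether reads shared with other sequences bear on its level was not tested.

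Kdm3a encodes a histone H3K9 demethylase that is a known HIF target (ENSMUSG00000053470, chr6:71565956-71610472). Its group medians were 130.0 CPM in control, 129 at 1 Hz, 143 at 4 Hz, and 128 at 10 Hz, within a full range of 115 to 155 CPM. Kdm3a passed in none of the 6 comparisons by edgeR or DESeq2, and 0 of the 6 had an unadjusted p below 0.05. Against control the difference at 4 Hz was 0.06 on the log2 scale, with a 95% interval of -0.09 to 0.22, and its sign turned in limma on log2(TPM + 1) (-0.16).

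**Figure D2:**
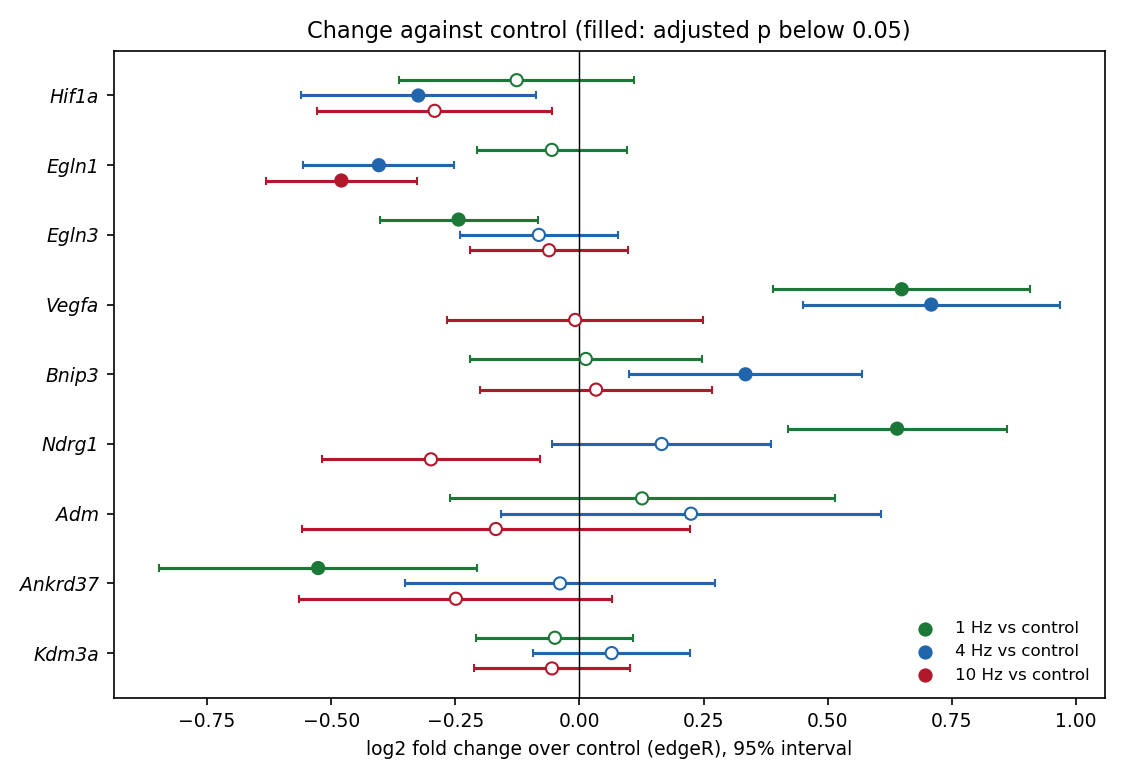
Log2 fold change over control (x axis) with its 95% interval for the 9 genes tested (y axis) at 1, 4, and 10 Hz; filled points passed an adjusted p below 0.05 in edgeR. Vegfa is displaced upward at 1 and 4 Hz (0.65 and 0.71) but not at 10 Hz (-0.01), and Egln1 downward at 4 and 10 Hz (-0.40 and -0.48).

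The small RNA share of a library moved with several of these genes. Over the 24 libraries, Pearson's r between log2 CPM and the log2 share was -0.87 for Vegfa, -0.73 for Ndrg1, -0.52 for Adm, and -0.08 for Egln1. With group means removed it was -0.56, -0.58, -0.47, and -0.57. For the other 5 tested genes it lay between -0.36 and 0.22 before and between -0.39 and 0.01 after removal. These are descriptions across libraries that share groups and depth. Within 10 Hz, where the share ranged most widely, the library with the lowest share (38.4 counts per M) had 301 CPM of Vegfa and 1068 CPM of Ndrg1, the highest of that group, and the library with the highest share (272) had 231 and 756 CPM, the lowest. With the share as a covariate in the fit, 6 of the 17 calls were kept. All 3 calls of 4 Hz against 1 Hz were among them, for Egln1 (-0.34, edgeR adjusted p = 0.00173), Ndrg1 (-0.47, adjusted p = 0.0019), and Ankrd37 (0.50, adjusted p = 0.0273). The others were Egln1 at 4 Hz (-0.62, adjusted p = 0.00503) and at 10 Hz (-0.51, adjusted p = 0.000146) against control and Ndrg1 at 10 Hz against 1 Hz (-0.63, adjusted p = 0.0149). Ndrg1 at 10 Hz against control, which was not called without the covariate, passed with it (-0.36, edgeR adjusted p = 0.0288). The rise of Vegfa over control was 0.22 at 1 Hz and 0.30 at 4 Hz with the covariate and did not pass (edgeR adjusted p = 0.722 and 0.391), and that of Ndrg1 at 1 Hz was 0.27 (adjusted p = 0.536). Over all genes the covariate left 1 gene called at 1 Hz (1421 at an unadjusted p below 0.05), 308 at 4 Hz, and 614 at 10 Hz against control. At 1 and 4 Hz against control, where the share did not overlap, the part of library composition cannot be told apart from that of stimulation. In the other comparisons the share overlapped, and its part in the differences was not tested beyond the fit with the covariate.

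**Figure D3:**
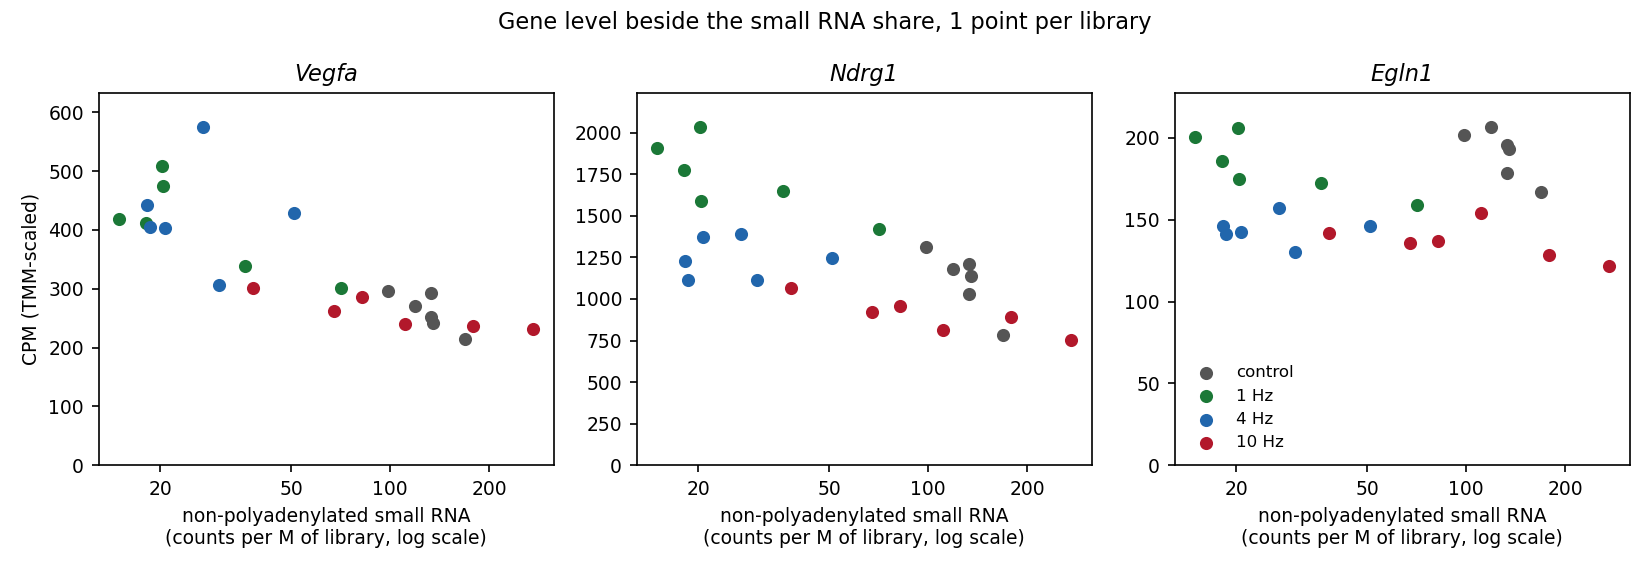
CPM of Vegfa, Ndrg1, and Egln1 (y axes, from 0) against the share of small RNAs without a poly(A) tail (x axis, counts per M of the library, log scale), 1 point per library, colored by group. Vegfa is high where the share is low across groups (r = -0.87), whereas Egln1 at 4 and 10 Hz is low at any share (r = -0.08 over all libraries). With group means removed, r was -0.56 for Vegfa and -0.57 for Egln1.

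Genes below are given at the frequency of their largest called change, followed by the other frequencies at which they were called. The lists were chosen with earlier results of these data known, so their shares beside those of all genes are descriptions only. Where 35.4%, 39.4%, and 4.89% are given below, they cover both directions. By direction they were 18.1% higher and 17.3% lower at 1 Hz, 19.2% and 20.2% at 4 Hz, and 2.67% and 2.22% at 10 Hz. Among the other genes of the oxygen sensor, the share called was above that of all genes at each frequency by 2 genes or fewer. Of 12 tested genes of 13 listed (HIF partners, the VHL complex, and coactivators), 3 rose and 3 fell at 1 Hz, 3 rose and 3 fell at 4 Hz, and 1 fell at 10 Hz, against 35.4%, 39.4%, and 4.89% of all genes called. The list median at 1, 4, and 10 Hz was -0.01, 0.00, and 0.03, against -0.01, -0.01, and -0.01 over all genes tested. Arnt2, a partner of the alpha subunits found mainly in neural tissue, rose at 1 Hz from 3.50 to 7.46 CPM (log2 fold change 1.10, SE 0.20, edgeR adjusted p = 0.000159), and at 4 Hz (0.95). Cul2 and Rbx1, the scaffold and ring subunits of the VHL ubiquitin ligase, rose at 4 Hz (0.50 and 0.26, edgeR adjusted p = 0.000123 and 0.00504), and Cul2 rose at 1 Hz too (0.24). Vhl fell at 1 Hz (-0.25, edgeR adjusted p = 0.0375). Cited2, which competes with HIF1A for its coactivators, fell at 4 Hz from 345 to 194 CPM (-0.83, SE 0.10, edgeR adjusted p = 1.3e-06), and the coactivator Ep300 fell as well (-0.46, edgeR adjusted p = 0.000141). Cited2 also fell at 1 Hz (-0.41) and 10 Hz (-0.54), and Ep300 at 1 Hz (-0.30).

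Among glycolysis and fuel genes that HIF can induce, the share called in either direction was near that of all genes at 1 and 4 Hz. The calls were uneven in direction. Of 26 genes, 9 rose and 1 fell at 1 Hz, 3 rose and 7 fell at 4 Hz, and 5 fell at 10 Hz. Of all genes, 35.4% were called at 1 Hz (18.1% higher and 17.3% lower), 39.4% at 4 Hz (19.2% and 20.2%), and 4.89% at 10 Hz (2.67% and 2.22%). The list medians were 0.15, -0.01, and -0.20. At 10 Hz, 17 of 26 were lower than at 1 Hz in edgeR and 19 in DESeq2 (against 18.5% of all genes tested). The median was -0.37, and 0 were higher in either, also at an unadjusted p below 0.05. Because the list was chosen with earlier results of these data known, this is a description and no test of the list. Car9, a carbonic anhydrase of the cell surface, rose at 1 Hz from 118 to 207 CPM (0.81, SE 0.15, edgeR adjusted p = 0.000153), and at 4 Hz (0.50). Its relative Car12 rose at 1 Hz (0.58, edgeR adjusted p = 0.00743) and fell at 10 Hz (-0.64, edgeR adjusted p = 0.0267), and muscle glycogen synthase Gys1 rose at 1 Hz (0.54, edgeR adjusted p = 0.00179). Pfkfb4 and hexokinase Hk1 fell at 4 Hz (-0.54 and -0.50, edgeR adjusted p = 0.00193 and 0.000385), and Hk1 fell at 10 Hz too (-0.47).

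Of 33 tested genes among 36 other hypoxia targets, 11 rose and 3 fell at 1 Hz, 10 rose and 4 fell at 4 Hz, and 2 rose and 2 fell at 10 Hz, against 35.4%, 39.4%, and 4.89% of all genes called. Their medians were 0.20, 0.13, and -0.05. Plod1, a collagen lysyl hydroxylase, rose at 1 Hz from 87.4 to 141 CPM (0.69, SE 0.12, edgeR adjusted p = 0.000153), and the secreted glycoprotein Stc2 rose from 4.49 to 7.49 CPM (0.74, edgeR adjusted p = 0.00388). Both rose at 4 Hz too (0.38 and 0.58). Hmox1, heme oxygenase, rose at all 3 frequencies. Its mean was 474 CPM without light and 756 CPM at 10 Hz (0.67, SE 0.11, edgeR adjusted p = 0.000854), and the log2 values at 1 and 4 Hz were 0.49 and 0.64. Loxl2, which crosslinks collagen, and Plin2, a lipid droplet protein, fell at 4 Hz (-1.03 and -0.70, edgeR adjusted p = 4.63e-06 and 0.000117) and also at 1 Hz (-0.57 and -0.35), and Zfp395 fell at 10 Hz (-0.71, edgeR adjusted p = 0.00659).

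Of the ligands and receptors around Vegfa and Adm, 9 of 14 listed were tested, of which 4 rose and 1 fell at 1 Hz and 4 rose and 2 fell at 4 Hz, against 35.4% and 39.4% of all genes called. At 10 Hz 0 passed in edgeR, 1 had an unadjusted p below 0.05, and 1 passed in DESeq2. The coreceptors Nrp2 and Nrp1 rose at 1 Hz from 34.5 to 75.4 CPM and from 11.3 to 20.2 CPM (1.14 and 0.85, edgeR adjusted p = 3.26e-05 and 0.000273), and the ligand Vegfd rose as well (0.58, edgeR adjusted p = 0.00114). All 3 rose at 4 Hz too (0.89, 0.48, and 0.45). Calcrl, a component of adrenomedullin receptors, and Ackr3, a scavenger receptor, fell at 4 Hz (-1.10 and -0.53, edgeR adjusted p = 0.00012 and 0.00102), and Calcrl fell at 1 Hz too (-0.73). The 5 genes not tested included Kdr, the main signaling receptor of VEGFA, and also Ramp1, Ramp2, and Ramp3 (means of 0.222, 0.327, and 0.891 CPM over all libraries).

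Around Bnip3, 12 mitophagy genes were tested, of which 1 fell at 1 Hz, 3 rose and 2 fell at 4 Hz, and 0 passed at 10 Hz in edgeR or DESeq2 (1 at an unadjusted p below 0.05), against 35.4%, 39.4%, and 4.89% of all genes called. At 4 Hz the LC3 gene Map1lc3a (0.45, edgeR adjusted p = 0.00396), the receptor Fundc1 (0.38, adjusted p = 0.0388), and Phb2 (0.20, adjusted p = 0.0387) rose, while the autophagy adaptor Sqstm1 fell from 1246 to 887 CPM (-0.49, adjusted p = 0.000768, and -0.33 at 1 Hz, also called) and Bcl2l13 fell (-0.23, adjusted p = 0.00718). Of 5 paralogs of Ndrg1 and Kdm3a, 1 rose and 1 fell at 1 Hz, 1 rose and 3 fell at 4 Hz, and 1 fell at 10 Hz, against the same shares. Ndrg4 rose at 1 Hz (0.46, edgeR adjusted p = 0.000283) and 4 Hz (0.40), and at 4 Hz the demethylase genes Kdm3b (-0.62, adjusted p = 4.24e-07) and Jmjd1c (-0.70, adjusted p = 0.000338) fell, as did Ndrg3 (-0.20, adjusted p = 0.0498). Kdm3b fell at 1 and 10 Hz too (-0.34 and -0.27). With the small RNA share as covariate, 0 genes of these 6 lists passed at 1 Hz in edgeR, against 1 of the 13318 genes tested. At 4 Hz 5 passed (among them Cited2, Hk1, Calcrl, and Kdm3b), against 308 of all genes. At 10 Hz 14 passed, against 614 of all genes, and 7 of the 14 were glycolysis genes that fell. The difference of the glycolysis list between 10 and 1 Hz was then called for 2 genes, against 318 of all genes. Hmox1 (0.66, edgeR adjusted p = 0.00147), Car12 (-0.69, adjusted p = 0.0165), and Zfp395 (-0.77, adjusted p = 0.00251) kept their calls at 10 Hz.

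**Figure D4:**
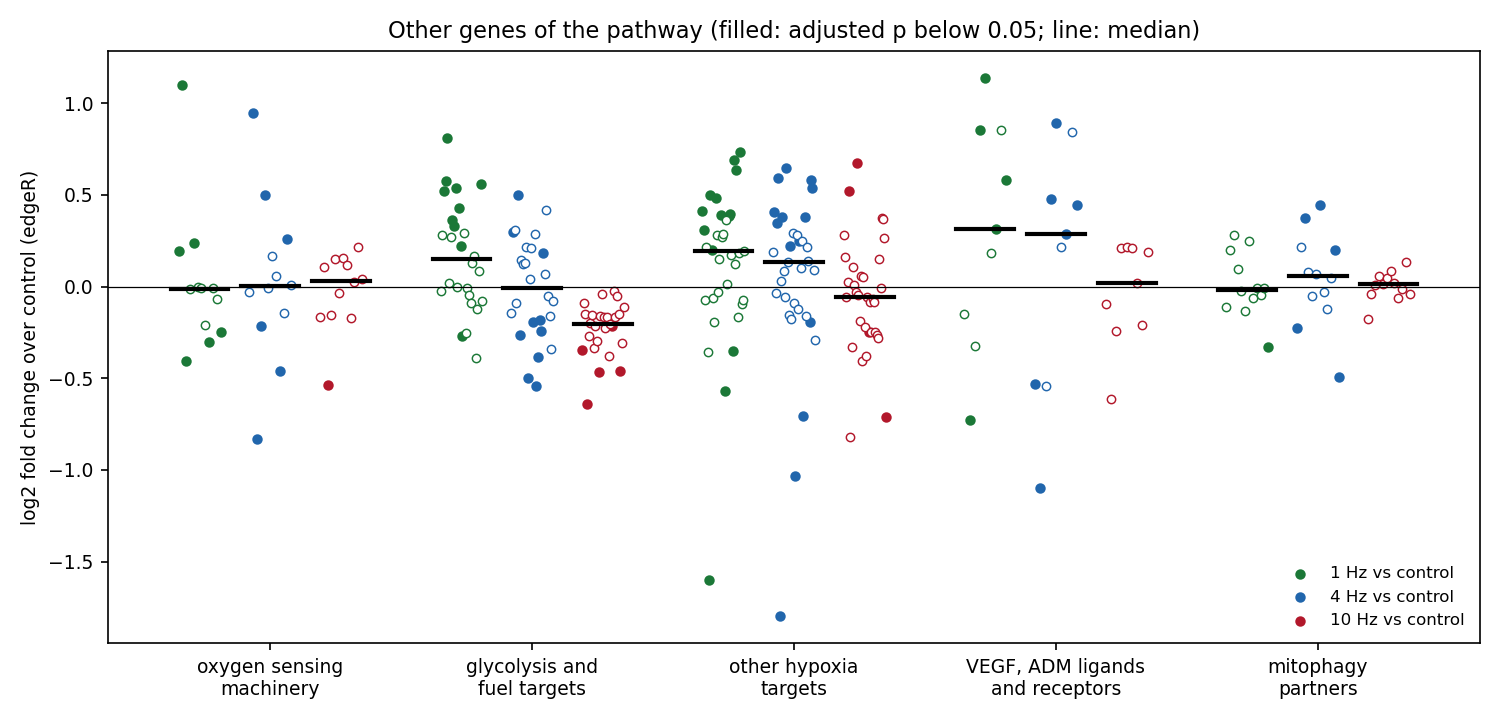
Log2 fold change over control (y axis) of each tested gene in 5 lists of the pathway (x axis) at 1, 4, and 10 Hz; filled points passed an adjusted p below 0.05 in edgeR, and black lines are list medians. The glycolysis median steps from 0.15 at 1 Hz to -0.20 at 10 Hz, and the other lists hold called genes on both sides of 0.

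The 9 tested genes did not vary as 1 block. Over the 36 pairs, Pearson's r of log2 CPM over the 24 libraries ranged from -0.35 to 0.76 (median 0.13), and with group means removed from -0.42 to 0.76 (median 0.10). Vegfa and Ndrg1 had the highest value over all libraries (0.76, and 0.67 with group means removed). Bnip3 varied with Kdm3a (0.74 and 0.73) and, within groups, with Hif1a (0.27 over all and 0.76 with group means removed). Within groups Ndrg1 varied with Egln1 (0.76), Ankrd37 (0.72), and Adm (0.71). Hif1a stood below 0 with Vegfa in both (-0.35 and -0.42). These values describe libraries that differ in depth and composition.

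**Figure D5:**
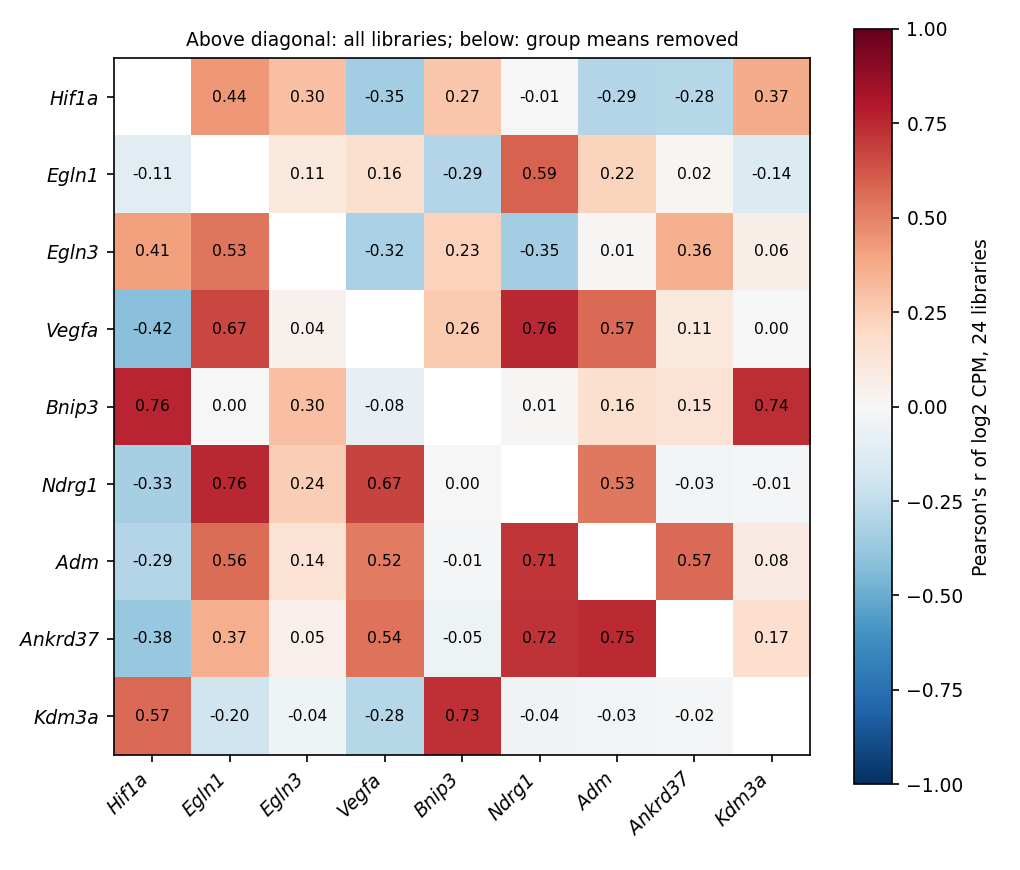
Pearson's r of log2 CPM between each pair of the 9 genes tested (both axes), over 24 libraries above the diagonal and with group means removed below it; the color scale runs from -1 to 1. Below the diagonal, Egln1, Vegfa, Ndrg1, Adm, and Ankrd37 lie mostly on the positive side together (Ndrg1 with Egln1 0.76), and Hif1a, Bnip3, and Kdm3a form another set (Hif1a with Bnip3 0.76).

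Outside the 10 genes, the most similar profiles were sought among 9065 genes with a mean of at least 10 CPM, by r of log2 CPM over the 24 libraries. Vegfa was most like Pck2, mitochondrial PEP carboxykinase (0.95, and 0.84 with group means removed). Ndrg1 was most like Tmem43 (0.97 and 0.86) and Gbf1 (0.95 and 0.76). Hif1a was most like the ubiquitin ligase gene Trip12 (0.94 and 0.92) and Ccser2 (0.93 and 0.94), and Bnip3 most like Pnrc2 (0.93 and 0.91) and the clock repressor Nr1d2 (0.92 and 0.94). Egln1 was most like Sdc3 (0.90 and 0.67) and Nedd9 (0.90 and 0.45). Kdm3a was most like Zfp280d (0.83) and Rpp30 (0.82), Adm most like Ankrd9 (0.81) and B3gat3 (0.80), and Ankrd37 most like Med26 (0.76) and Mrpl43 (0.72). Egln3 was most like Clpx (0.72) and Pdk1 (0.69), itself a gene of the glycolysis and fuel list.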

How the data were processed

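RNA was taken from 24 tissues, 6 per group, with groups and replicate numbers from the sample titles. Per the labels, poly(A) RNA was selected, and low-input samples, which are not named, were ribodepleted. The authors processed reads with nf-core/rnaseq against GRCm39 (aligner and counter in the submitters' notes: STAR, Salmon; the annotation release is not given in the sources used here). They deposited gene tables of estimated counts from salmon, which carry no normalization, and of TPM, which the authors scaled to a fixed sum. The study calls the replicates biological, and the labels name no separate cultures, so p-values measure the spread between these samples. No 2 of a group's libraries were copies: chi-square per gene was at least 3.18 in all 60 pairs, where sampling alone gives about 1.

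Estimated counts were rounded. Genes were kept with filterByExpr (13318, with 99.8% of counts), scaled by TMM, and tested in 1 edgeR fit of 24 libraries (edgeR 4.0.16, R 4.3.3) with 6 contrasts. SEs are the log2 fold change over the root of F. The alternatives were limma 3.58.1 on log2(TPM + 1) or log2(TPM + 0.1) for genes with a mean of at least 1 TPM, DESeq2 1.42.0, other scalings and filters, thinning, only the 12 libraries compared, a replicate block, the log2 small RNA share as covariate (23 symbols of 24 listed were found), and leaving out each library. On the TPM scales the pseudocount shrinks the fold change of low genes. The fits were tested on simulated data. The 10 genes and all lists were chosen with earlier results of these data known. List genes are named if called against control with a mean of at least 5 CPM, up to 3 each way per list. Sequences are RefSeq windows matched exactly once in GRCm39, and positions and exons are GENCODE M39.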

Additional observations from a re-analysis of the deposited data

Results flagged for a closer look

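In the 40 sets of 6 libraries (10 genes in 4 groups), 3 had 1 library standing far from the rest by the gap to its nearest neighbor over the whole range (Dixon's ratio), and chance flags about 1 set in 20. Hif1a in control 4 was 127.8 CPM, with the next at 158.8 CPM and the highest at 177 CPM. Bnip3 at 1 Hz was 948.4 CPM in replicate 3, with the next at 731 CPM and the lowest at 629.6 CPM. Adm at 1 Hz was 10.98 CPM in replicate 1, with the next at 19.2 CPM and the highest at 24.1 CPM.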

How the results depend on the processing

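All 17 calls were kept with DESeq2 size factors, DESeq2, thinned counts, only the 12 libraries compared, and the replicate block. Same-numbered libraries correlated above 0.1 in 10 of 36 pairs (median 0.0173), so the numbers were not taken as a pairing. Of 24 libraries 10 correlated best with 1 of their own number, where 4 would without any link, a hint from the data and not from the design. With the replicate block the counts were 4, 4, 1, 4, 3, and 3 at 1, 4, and 10 Hz against control, 4 against 1 Hz, 10 against 1 Hz, and 10 against 4 Hz. Total count scaling kept 15 calls and moved the median of all genes at 4 Hz against control to -0.11. Limma kept 16 on log2(TPM + 1) and on log2(TPM + 0.1) (medians -0.16 and -0.18), which called 2 genes at 10 Hz against control (Egln1 and Ndrg1), and 15 without its filter. Fitting without a count filter kept 15. The small RNA covariate kept 6, with 0 genes called at 1 Hz, 1 at 4 Hz, and 2 at 10 Hz (Egln1 and Ndrg1) against control, 1 at 10 against 1 Hz, and 0 at 10 against 4 Hz (over all genes 0 in edgeR against 3037 in the full fit, with 1003 at an unadjusted p below 0.05). Over all genes it called 1 at 1 Hz against 4720, 308 against 5251 at 4 Hz, and 318 against 4829 at 10 against 1 Hz. With the fold limit, 1 gene was called at 4 Hz and 0 at 10 Hz against control, 0 at 4 against 1 Hz, and 1 at 10 against 4 Hz. Leaving out single libraries gave 3 to 4 genes at 1 Hz, 3 to 4 at 4 Hz, 1 to 2 at 10 Hz (2 without control 6), 2 to 4 at 4 against 1 Hz, 3 to 4 at 10 against 1 Hz, and 2 to 3 at 10 against 4 Hz. Over all genes, calls at 10 Hz against control were 651 in the full fit, 302 with only the 12 libraries compared, 431 with limma unfiltered, and 985 with DESeq2, and those at 4 against 1 Hz were 1634 and, without a count filter, 964. Limma unfiltered called 3030 at 10 against 1 Hz and 1554 at 10 against 4 Hz. The cause was not tested.

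Signs turned only for values that were not called. For Bnip3 at 1 Hz the log2 fold change became -0.063 with total count scaling, -0.0062 with thinned counts, and -0.13 with the covariate. Total count scaling gave -0.029 for Kdm3a at 4 Hz and 0.036 at 10 against 1 Hz, and the unfiltered fit gave 0.0100 for Vegfa at 10 Hz. On log2(TPM + 1), with or without a filter, Kdm3a was -0.16 at 4 Hz, 0.052 at 10 against 1 Hz, and 0.012 at 10 against 4 Hz, Bnip3 was -0.024 at 10 Hz and -0.080 at 10 against 1 Hz, Vegfa was -0.056 at 4 against 1 Hz, and Egln1 was 0.0071 at 10 against 4 Hz. On log2(TPM + 0.1) these were, in the same order, -0.17, 0.053, 0.012, -0.024, -0.080, -0.056, and 0.0072. With the covariate, Adm was -0.43 at 1 Hz, -0.30 at 4 Hz, 0.21 at 10 against 1 Hz, and 0.078 at 10 against 4 Hz, Ndrg1 was -0.19 at 4 Hz, and at 10 against 4 Hz Egln1 was 0.10 and Ankrd37 0.089. Without single libraries, Bnip3 lay between -0.078 and 0.077 at 1 Hz, between -0.024 and 0.097 at 10 Hz, and between -0.027 and 0.11 at 10 against 1 Hz. Adm lay between -0.019 and 0.26 at 1 Hz and between -0.016 and 0.17 at 4 against 1 Hz, Ankrd37 between -0.15 and 0.12 at 4 Hz, and Egln3 between -0.12 and 0.0026 at 10 Hz and between -0.043 and 0.084 at 10 against 4 Hz. Vegfa lay between -0.059 and 0.039 at 10 Hz and between -0.036 and 0.14 at 4 against 1 Hz, Kdm3a between -0.045 and 0.026 at 10 against 1 Hz, and Hif1a between -0.054 and 0.093 at 10 against 4 Hz.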
